A study of Homo sapiens with 4 samples.

Results

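N6-methyladenosine (m6A) sites that lie in protein-coding genes without introns were taken from a list of m6A sites in C643 cells. A listed site was a member when it fell, on the same strand, in the Ensembl canonical transcript of a protein-coding gene and that transcript had exactly 1 exon. Of the 18789 listed sites, 638 met this rule (3.40%, 95% Wilson interval 3.15 to 3.66), and they lay in 89 genes. The cells were untreated, labelled wild type, and are an established cell line from an anaplastic carcinoma of the thyroid, a tumour that has lost the features of thyroid tissue. They were mapped by miCLIP2. Here an antibody against m6A is crosslinked by ultraviolet light to fragments of polyadenylated RNA and the end of the cDNA marks the modified base. Peaks at adenosines were classified by the machine learning model m6Aboost. There was 1 group of 3 replicates sequenced as 4 libraries, deposited as 1 pooled list with a prediction score for each site. Since the list holds no read counts, the depth of each site is unknown, and no spread between replicates could be given. The intervals below are 95% Wilson intervals over sites or motifs. They cover counting error only, and sites of 1 gene are not independent.

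m6A is placed on mRNA by the METTL3-METTL14 methyltransferase complex, mostly at the A of DRACH motifs, in which D is A, G or T, R is A or G, and H is A, C or T. It is read by proteins of the YTH family, which influence the decay and translation of the mRNA. In spliced mRNAs the exon junction complex, which is left a short way upstream of each junction, keeps the methyltransferase away from the sequence around junctions, so that m6A is found mainly in long internal exons and around the stop codon. An mRNA made from 1 exon carries no junction, and in such genes the coding sequence (CDS) can be examined for m6A without one. Many intronless genes encode regulators that are induced quickly, such as JUN, or belong to families of receptors and histones that arose by gene duplication.

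The windows below, read from the genome (hg38), show the sites with the 3 highest prediction scores of all members, the highest-scoring sites of the 3 genes with the most sites, and the highest-scoring sites of a pair of genes in which all sites were in the CDS. Each runs 5' to 3' on the strand of the transcript, over 21 nt, and the capitals mark the pentamer whose middle A is the listed site.
RAP2B, 3' UTR, chr3:153163765-153163785, plus strand: agaggaagAAACTttttttcc
IER5, 3' UTR, chr1:181090293-181090313, plus strand: ggagggagGGACTttacacct
SF3B5, 3' UTR, chr6:144095011-144095031, minus strand: actcctgaGAACTgtgctggt
HPS6, 3' UTR, chr10:102067857-102067877, plus strand: gcttgcttGGACAgttcctct
RNF26, 3' UTR, chr11:119336563-119336583, plus strand: gagttggaAGACTatgatctg
JUN, 3' UTR, chr1:58781787-58781807, minus strand: ggaacgttGGACTtttcgtta
RBM15B, CDS, chr3:51394003-51394023, plus strand: agcactaaGGACAttgggcaa
ZNHIT2, CDS, chr11:65117353-65117373, minus strand: gcctatcgGGACTctgggagc

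All of these pentamers are DRACH motifs. The score was 0.984 for the site of RAP2B, a small GTPase of the RAS superfamily, 0.981 for that of IER5, an immediate early response gene, and 0.967 for that of SF3B5, a subunit of the splicing factor SF3B. The site of RAP2B lay 532 nt after the first base of the stop codon, that of IER5 419 nt and that of SF3B5 218 nt. The site of ZNHIT2 (0.951) was in the CDS, 919 nt before the stop codon.

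Single-exon genes were less often hosts than coding genes in general, but the hosts among them carried many sites. Of the 1130 coding genes whose canonical transcript has 1 exon, 89 had a listed site (7.88%, 6.44 to 9.59). The share was 19.98% (19.4 to 20.6) for spliced coding genes and 19.3% for all coding genes. The hosts had a median of 7 sites (quartiles 3 and 10, maximum 24), against 3 for spliced hosts (quartiles 2 and 6, maximum 48). In 9 of the 89 hosts there was 1 site, and the 25 hosts with at least 10 sites held 340 of the members (53.3%, 49.4 to 57.1). Hosts had longer 3' UTRs than single-exon genes without a site, with a median of 814 nt against 158 nt. They also had longer transcripts (2317 nt against 1106 nt) and a higher GC content of the CDS (65.0% against 54.4%, and 59.2% in spliced hosts). Spliced hosts had medians of 886 nt for the 3' UTR and 2698.5 nt for the transcript. In single-exon genes without a site the lower quartile of the annotated 3' UTR was 0 nt. Those genes also had fewer DRACH motifs (median 20 against 35), and 1 listed site makes a gene a host. Transcript abundance was not measured in these files, and its part in which genes had sites was not tested.

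The 2 largest families of single-exon genes were without sites. No listed site was found in the 214 olfactory receptors, which allows a share of hosts of up to 1.40%, or in the 94 keratin-associated proteins, which allows up to 3.19%. Both limits are below the 7.88% of all single-exon genes. Sites were also absent from the 31 other G protein-coupled receptors, the 24 taste receptors, the 16 protocadherins, the 16 interferons, the 11 claudins, the 6 POU transcription factors, the 5 zinc finger proteins, the 4 leucine-rich repeat membrane proteins and the 1 ribosomal protein. With so few genes a count of 0 allows shares above 7.88% in each of these, from 9.68% upward, so a difference from other single-exon genes was not detectable. Of the 86 histone genes, 6 had sites, a share near that of all single-exon genes, with 20 sites between them, of which 9 were in H2AX, the variant phosphorylated at DNA breaks. All 3 JUN genes (JUN, JUNB and JUND, subunits of the AP-1 transcription factor) were hosts with 32 sites, and both IER genes (IER5 and IER5L) were hosts with 24 sites. Of the 6 frizzled receptors, which bind Wnt ligands, 4 were hosts with 18 sites. Of the 20 forkhead (FOX) transcription factors 3 were hosts, with 15 sites, and of the 8 SOX transcription factors 2 were hosts, with 13 sites. Both hosts among the 4 glycosyltransferases and sulfotransferases were rich in sites, with 15 in B3GALT6 and 15 in CHST14. Sites were also found in the ubiquitin ligase components (2 hosts of 6, 25 sites), the BTB and kelch proteins (1 of 8, 14 sites), the CEBP factors (2 of 3, 10 sites), the HSP70 chaperones (2 of 4, 5 sites), the melanoma antigens (1 of 7, 4 sites) and the mitochondrially encoded genes (1 of 13, 1 site). The 533 genes in no listed family held 56 hosts and 409 sites. Over all single-exon hosts 13.6% of DRACH motifs were listed, and the families lay on both sides of this. Frizzled hosts had 4.58% (2.64 to 7.83), HSP70 chaperones 6.17%, SOX factors 7.79% and FOX factors 8.63%. Melanoma antigens had 13.6%, IER genes 20.5%, histones 20.7% and JUN genes 21.3%. CEBP factors had 26.3%, BTB and kelch proteins 26.9%, ubiquitin ligase components 30.3% and the glycosyltransferases and sulfotransferases 33.8%.

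The genes with the most sites were HPS6, RNF26 and JUN. HPS6, a subunit of the BLOC-2 complex that builds lysosome-related organelles, had 24 sites, 20 of them coding and 4 after the stop codon. RNF26, a ubiquitin ligase of the endoplasmic reticulum, had 22 sites (3 in the 5' UTR, 14 coding and 5 in the 3' UTR). JUN had 17 sites, namely 4 before the start codon, 4 in the CDS and 9 after the stop codon. IRF2BPL, a relative of the IRF2-binding corepressors, had 16 sites. They were followed with 15 sites each by CHST14, the dermatan 4-O-sulfotransferase, FJX1, a homologue of the fly gene four-jointed, and B3GALT6, a galactosyltransferase of the glycosaminoglycan linker.

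The next genes differed in where their sites lay. SDHAF1, an assembly factor of succinate dehydrogenase, had 14 sites, all in the 3' UTR between 57 and 631 nt after the stop codon. Its CDS held only 3 DRACH motifs, and 0 listed of 3 allows any share up to 100%. RBM15B, an RNA-binding protein that is itself part of the m6A methyltransferase complex, had 14 sites, all in the CDS, and 0 of the 77 DRACH motifs of its 3' UTR were listed, which allows a share of up to 3.90%. C6orf47 had 7 sites in the 5' UTR, 7 in the CDS and none in the 3' UTR, where 0 of 16 motifs were listed, which allows up to 18.8%. KCTD11, an adaptor of cullin-3 ubiquitin ligases, had 14 sites, and IER5, TMEM203, CENPB and a gene known by its identifier, ENSG00000284976, had 13 each. CENPB binds the CENP-B box of centromeric DNA. H2AX had all of its 9 sites in the 3' UTR, between 104 and 995 nt after the stop codon, but its CDS held only 2 DRACH motifs.

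**Figure D1:**
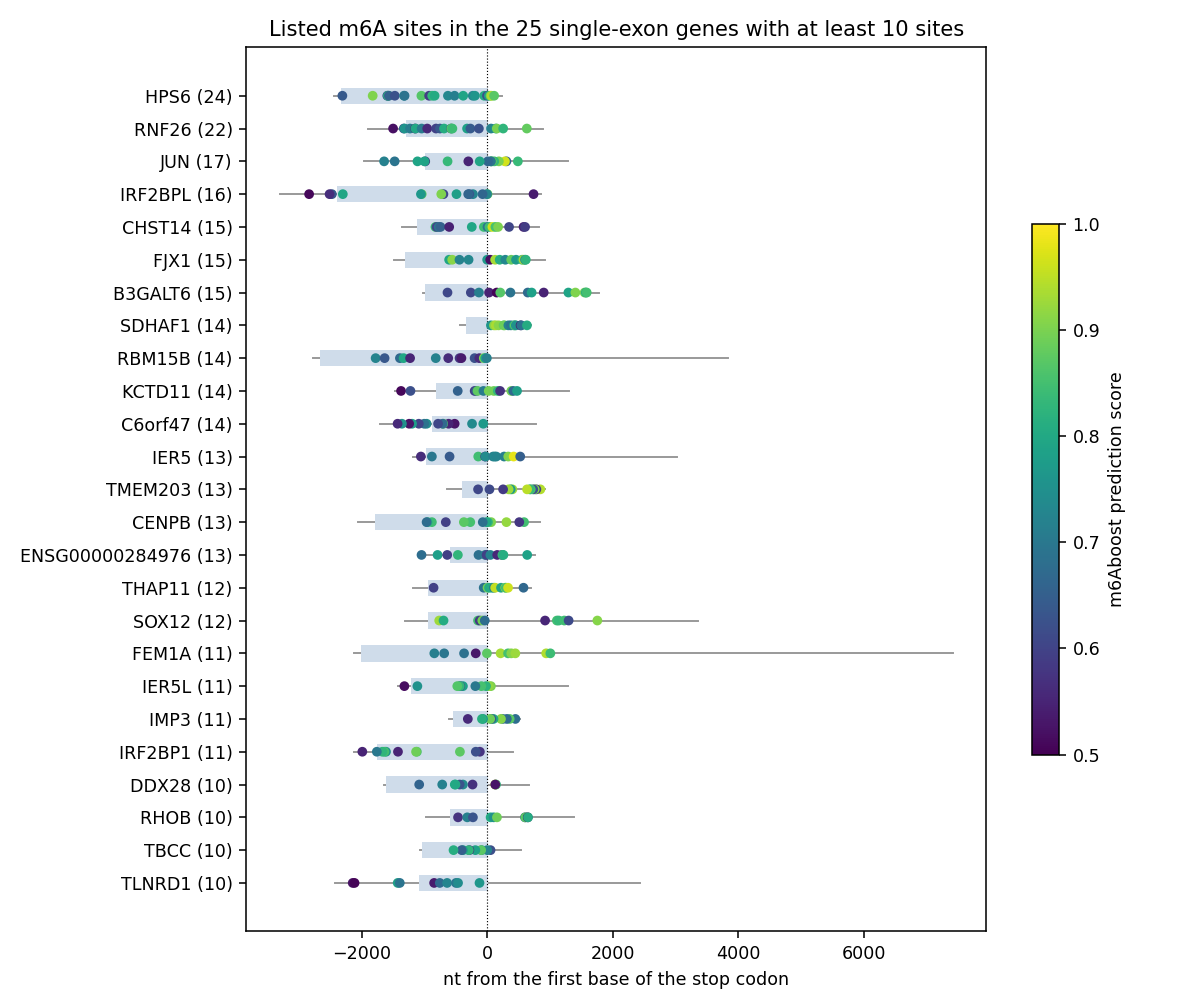
Position of each listed site (points, coloured by prediction score) in the 25 single-exon genes with at least 10 sites, in nt from the first base of the stop codon, with the CDS as a bar and the UTRs as lines; the number of sites follows the gene name. Sites of HPS6 run along the whole CDS, those of SDHAF1 lie in the 3' UTR, and the long 3' UTRs of RBM15B, IER5 and FEM1A are empty over most of their length.

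The label of the members was checked against the annotation. In 82 of the 89 hosts all annotated coding transcripts had 1 exon, and 7 had a further coding transcript that is spliced. Within 100 nt of a junction of any other isoform of the gene lay 21 members, and 4 lay within 100 nt of a junction of another coding isoform (3 in CHST14 and 1 in ZNHIT2). Another coding gene on the same strand also had an exon at 18 members in 5 genes, 13 of them being all sites of ENSG00000284976, so these sites cannot be assigned to 1 gene. None of the members lay within 10 nt of the transcript start. The only mitochondrial member, in MT-ND1, a subunit of complex I, had the lowest score of all (0.502) and was not at DRACH.

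The CDS held 321 members (50.3%, 46.4 to 54.2), the 3' UTR 278 (43.6%, 39.8 to 47.4) and the 5' UTR 39 (6.11%, 4.50 to 8.25). For the sites of spliced genes these shares were 42.7%, 55.2% and 2.16%. The motifs themselves were distributed otherwise, because the CDS held 30.6% of the DRACH motifs of the single-exon hosts and the 3' UTR 62.4%. In 49 hosts both regions had sites. Region was an input of the classifier, which bears on each comparison of regions below.

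Pooled over the single-exon hosts, DRACH motifs of the CDS were listed more often than those of the 3' UTR, a gap that depended on the length of the 3' UTR. Over whole transcripts, 554 of 4069 motifs were listed (13.6%, 12.6 to 14.7), where the share was 7.49% over all coding hosts and 7.37% (7.26 to 7.48) over spliced hosts. In the CDS, 275 of 1244 motifs were listed (22.1%, 19.9 to 24.5), against 6.23% of the CDS motifs of all coding hosts. The quartiles of this share over the 76 genes with at least 5 CDS motifs were 12.3% and 34.1%. In the 3' UTR 242 of 2539 motifs were listed (9.53%, 8.45 to 10.7), close to the 9.22% of all coding hosts. In the 5' UTR the number was 37 of 286 (12.9%, 9.53 to 17.3), against 4.35% (3.93 to 4.81) in spliced hosts. The latter share includes motifs near junctions, and 5' UTR motifs far from junctions were not examined separately. Hosts were defined as genes with at least 1 listed site, which raises every share of listed motifs.

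Distance to a junction separated the CDS motifs of spliced hosts. Within 100 nt of a junction 2.41% of them were listed (2.31 to 2.52), and farther away 17.6% (17.2 to 18.1). The CDS share of single-exon hosts was 4.49 percentage points above the latter (interval of the difference 2.23 to 6.92), and 2.39 points above it (0.452 to 4.55) among sites with a score of at least 0.7. These intervals pool motifs of all genes. Over genes with at least 5 such motifs, the median was 24.0% in 76 single-exon hosts (quartiles 12.3 and 34.1). It was 19.0% in 1456 spliced hosts far from junctions (quartiles 5.88 and 33.3), so the spreads over genes largely overlapped. By exon, the spliced share far from junctions was 9.64% in first exons, 14.3% in internal exons and 23.7% (22.9 to 24.5) in last exons, and the interval of the last exons overlapped that of the single-exon CDS. The difference depends on the denominator. Over all canonical coding transcripts, with or without a site, the CDS share of single-exon genes was 0.855 points lower (difference -0.855, -1.05 to -0.645), since fewer single-exon genes are hosts.

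**Figure D2:**
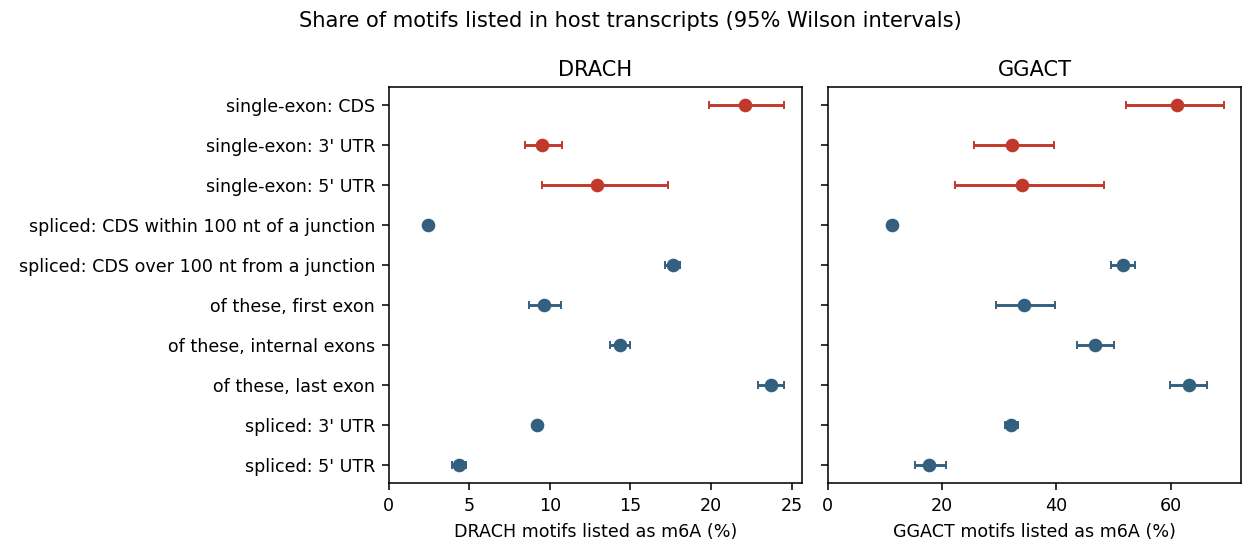
Share of DRACH motifs (left) and GGACT motifs (right) that were listed, in percent, for regions of single-exon hosts (red) and spliced hosts (blue), with bars for 95% Wilson intervals. The single-exon CDS (22.1% of DRACH) lies between spliced CDS far from junctions (17.6%) and its last-exon part (23.7%). With all lengths pooled, the 3' UTRs of both kinds of gene lie near each other (9.53% and 9.19%).

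Single pentamers differed in how far the CDS stood above the 3' UTR. GGACT was the most frequent pentamer with 145 members (22.7%, against 21.5% of spliced sites), followed by GGACA with 73, GAACT with 71, GGACC with 70 and AGACT with 59. Of the 339 GGACT motifs of the single-exon hosts 145 were listed (42.8%, 37.6 to 48.1), where the share over all coding hosts was 26.5%. In the CDS the listed share of GGACT was 61.2% (52.3 to 69.4), that of GAACT 55.7% and that of GGACC 23.8%. In the 3' UTR it was 32.2% (25.6 to 39.5) for GGACT, 18.2% for GAACT and 21.8% for GGACC, so that the CDS was above the 3' UTR at GGACT and GAACT by far more than at GGACC. The share of AAACT was low in both regions, 6.90% for the CDS and 9.80% for the 3' UTR. In spliced hosts the GGACT share was 51.7% (49.6 to 53.8) for CDS far from junctions and 32.1% (30.9 to 33.3) in the 3' UTR.

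Of the members 86.8% (83.99 to 89.2) were at DRACH, against 88.7% of spliced sites. The other 84 were led by GGACG, a motif that breaks DRACH only at the last base, with 34 members, and by GTACT with 18. RNF26 had 2 GTACT sites and FZD2 also had 2, all in the CDS.

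Prediction scores of members had a median of 0.751 (quartiles 0.639 and 0.845), against 0.757 for spliced sites. They differed between regions, with medians of 0.822 in the 3' UTR, 0.724 in the CDS and 0.626 in the 5' UTR. Pooled over all lengths, the 3' UTR thus had a lower share of listed motifs than the CDS, and higher scores. The lowest scores were 0.502 in MT-ND1, 0.504 in RTL8A and 0.505 in B3GALT6.

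Genes were then compared within themselves, which sets aside differences between genes. Among the 63 single-exon hosts with at least 5 DRACH motifs in each of the 2 regions, the listed share was higher in the CDS in 39 and higher in the 3' UTR in 24, with a median difference of 8.57 points (quartiles -6.67 and 22.2). Among 2985 spliced hosts the order was turned, with the CDS higher in 987 and the 3' UTR in 1913 (median difference -5.07 points). When only motifs over 100 nt from a junction were used, the CDS was higher in 775 of 1228 spliced hosts and the 3' UTR in 398, and the median difference of 7.60 points came near that of the single-exon hosts.

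The share listed per gene varied widely. Among the 71 hosts with at least 20 DRACH motifs it ran from 0% to 52.3%, with a median of 13.6% (quartiles 4.86 and 26.3). The highest shares were those of HPS6 (23 of 44 motifs, 52.3%), SDHAF1 (11 of 22), CEBPB (45.0%), CENPB (44.4%) and TMEM203 (40.9%). CEBPB, a basic leucine zipper transcription factor, had 4 CDS sites and 5 sites after the stop codon. The study named CCDC85B and RHOB for another human cell line, HEK293T. In the C643 list CCDC85B, a coiled-coil protein, had 6 of its 14 motifs listed (42.9%), 3 in each region. RHOB, a small GTPase, had 9 of 39 (23.1%). The lowest shares were those of MT-ND1 (0 of 21, which allows up to 14.3%), FZD1 (0.893%), FOXL1 (1.18%), SOX4 (1.19%) and C6orf120 (1.22%), each with 1 site in all. Of these, FZD1, FOXL1, SOX4 and C6orf120 had 3' UTRs of 2660 to 4502 nt.

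Along the transcript, the share of listed DRACH motifs was lowest at both ends. It was 9.02% (6.14 to 13.1) in the first of 10 equal parts, 18.6% (15.01 to 22.9) in part 3 and 5.74% (3.95 to 8.28) in the last. Near the 5' end it was 4.40% over the first 100 nt, 9.68% over the next 100 nt, 15.2% from 200 to 400 nt, 21.7% from 400 to 600 nt and 26.4% (22.7 to 30.4) from 600 to 1000 nt. In the last 100 nt of the transcript it was 4.11% (1.90 to 8.68), and 17.7% in the 100 nt before that. Spliced transcripts far from junctions had the same order at the 5' end, from 2.49% over the first 100 nt to 20.9% from 600 to 1000 nt.

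**Figure D3:**
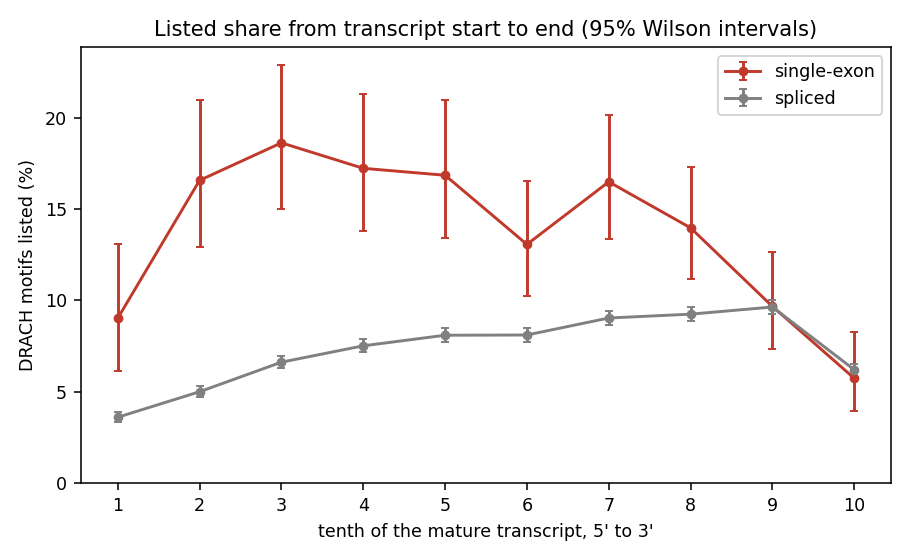
Share of DRACH motifs listed (percent, with 95% Wilson intervals) in 10 equal parts of the mature transcript from the 5' end, for single-exon hosts (red) and spliced hosts (grey). Single-exon hosts reach 18.6% in part 3 and fall to 5.74% in the last part, where their interval overlaps that of spliced hosts.

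Within the CDS the share climbed toward the stop codon. Over 5 equal parts of the CDS it was 12.8%, 19.4%, 21.7%, 25.8% and 28.3% (23.6 to 33.6), and over 5 equal parts of the 3' UTR it was 21.1%, 10.0%, 7.65%, 6.31% and 3.05% (1.86 to 4.98). In windows of 200 nt, it was 31.6% (26.3 to 37.4) just before the stop codon, 29.0% (24.5 to 34.1) just after it and 23.0% (18.6 to 28.1) in the next window. Spliced hosts far from junctions gave 26.4%, 26.4% and 17.1% in the same windows, so the maximum around the stop codon was present in genes without junctions. When all motifs of spliced hosts were used, the window before the stop codon fell to 13.8%. Of the members, 32.6% (29.1 to 36.3) were at most 200 nt from the stop codon, a stretch that held 15.0% of the hosts' motifs, and the corresponding values of spliced hosts were 34.6% and 13.1%.

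**Figure D4:**
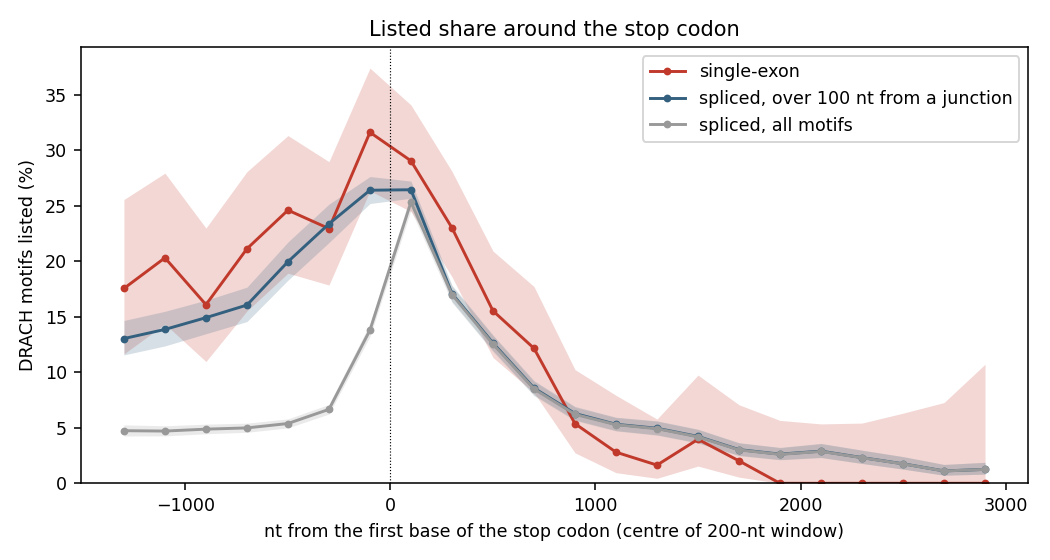
Share of DRACH motifs listed (percent; shading, 95% Wilson intervals) in 200-nt windows around the first base of the stop codon, for single-exon hosts (red), spliced hosts over 100 nt from a junction (blue) and all motifs of spliced hosts (grey). The red and blue lines peak around the stop codon (31.6% and 26.4% just before it), and the red line is at 0 from 1800 nt on.

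Late parts of long 3' UTRs held few members. At 1800 nt or more after the stop codon 0 of 933 DRACH motifs of 22 single-exon hosts were listed, which allows a share of up to 0.322%, where 1.62% (1.48 to 1.77) of 29158 motifs were listed in spliced hosts. The farthest members lay 1766 nt after the stop codon in FOXL1, 1753 nt in SOX12 and 1583 nt in B3GALT6. SOX12 had a gap in its sites, since 6 preceded the stop codon and the other 6 lay between 920 and 1753 nt after the stop codon. In B3GALT6, 5 of the 12 sites in the 3' UTR lay between 1291 and 1583 nt.

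The 3' UTR share varied with the length of the 3' UTR. It was 22.1% in 3' UTRs under 500 nt, 29.3% (25.2 to 33.8) from 500 to 1000 nt, 11.4% from 1000 to 2000 nt and 2.85% (2.14 to 3.80) from 2000 nt on. In the 20 hosts with a 3' UTR of at least 2000 nt, 11 had a site there and 9 had none. Over the first 400 nt of these long 3' UTRs 20.1% of motifs were listed (14.3 to 27.6), against 28.4% (24.6 to 32.6) in shorter ones. From 400 to 1000 nt the shares were 5.67% (3.20 to 9.87) and 14.9% (11.6 to 19.01). At this distance the long 3' UTRs were lower and the intervals did not overlap, but their share rested on 11 listed motifs in 6 of 20 genes. From 1000 nt on 0.482% (6 of 1244) of the motifs of long 3' UTRs were listed. In spliced hosts with 3' UTRs of at least 2000 nt the share was 19.7% over the first 400 nt and 2.27% (2.13 to 2.42) from 1000 nt on. HNRNPA0, an RNA-binding protein with a 3' UTR of 7498 nt, had its last site 410 nt after the stop codon. The last site was at 1004 nt in FEM1A, a substrate receptor of cullin-2 ubiquitin ligases (3' UTR of 7409 nt), and at 693 nt in RAP2B (7382 nt). The lengths are those of the annotation, and the polyadenylation sites used in these cells were not measured here.

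**Figure D5:**
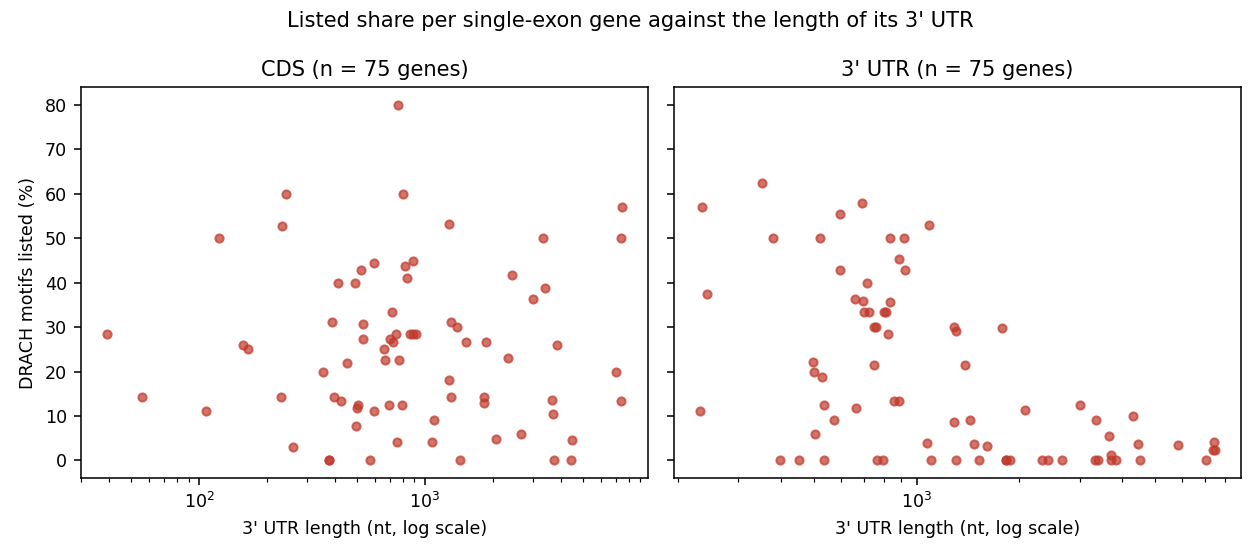
Share of DRACH motifs listed (percent) for CDS (left) and 3' UTR (right) against the length of the 3' UTR (nt, log scale), 1 point for each single-exon host with a 3' UTR and at least 5 motifs in the region (75 genes in each panel). In the right panel genes with a 3' UTR of at least 2000 nt reach at most 12.5% (IER5), where the median of all genes shown is 11.4%. Pooled, 2.85% of the motifs of these long 3' UTRs were listed. The left panel shows CDS shares up to 57.1% among the genes with long 3' UTRs.

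Neighbouring members were close together. The median distance between neighbouring sites of a gene was 80 nt (quartiles 34 and 175) over 549 pairs, and 35.2% (31.3 to 39.2) of pairs were at most 50 nt apart, against 32.2% and a median of 96 nt in spliced hosts. In HPS6, 4 sites stood between 1594 and 1569 nt before the stop codon. In JUN, 3 sites stood at 56, 60 and 68 nt after it.

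Related genes were set side by side, since their sequences show whether sites lay at matching bases. RTL8A and RTL8C, which derive from the gag gene of a retrotransposon, had 8 sites each, and their CDS were 95.3% identical. At 4 of these sites the aligned base of the other gene was also listed. Of these 4 pairs the 3 at DRACH motifs are shown, and in the first of them the windows are identical. The pair left out, in the 3' UTR, was at GGACG, with scores of 0.702 in RTL8A and 0.895 in RTL8C.
RTL8A, CDS, chrX:135051764-135051784, minus strand: gaggacgaGGACTtctaggcc
RTL8C, CDS, chrX:135032708-135032728, plus strand: gaggacgaGGACTtctaggcc
RTL8A, 3' UTR, chrX:135051437-135051457, minus strand: tacatactGGACAgaccaccc
RTL8C, 3' UTR, chrX:135033036-135033056, plus strand: tacacactGGACAgaccaccc
RTL8A, 3' UTR, chrX:135051290-135051310, minus strand: agtgatgtGGACTcacctcgg
RTL8C, 3' UTR, chrX:135033183-135033203, plus strand: agtgatctGGACTcacctcgg

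The first pair lay 5 nt before the stop codon, with scores of 0.615 in RTL8A and 0.736 in RTL8C. The last pair, 469 nt after the stop codon in RTL8A and 470 nt in RTL8C, had scores of 0.927 and 0.894. RTL8B, the other gene of the group, had 2 sites, both in the 3' UTR, and 1 of them was aligned to a site of RTL8A. Its 3' UTR was longer than that of RTL8A (1605 nt against 835 nt) and 47.0% identical to it over the alignment. Of the 50-nt windows of the CDS of RTL8A, 23.9% also occurred in RTL8B.

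The JUN genes share a DNA-binding domain and were less alike, with CDS identities of 61.8% to 63.9%. JUN and JUND had listed sites at 2 aligned bases of the CDS. The pentamers of the 2 genes were not the same at either, as the windows show.
JUN, CDS, chr1:58782370-58782390, minus strand: ggagcctcAGACAgtgcccga
JUND, CDS, chr19:18280742-18280762, minus strand: cgagccacAGACGgtgcccga
JUN, CDS, chr1:58782189-58782209, minus strand: aaagctcaGAACTcggagctg
JUND, CDS, chr19:18280555-18280575, minus strand: aagagtcaGAACAcggagctg

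The second pair lay 122 nt before the stop codon in both genes, and the score was 0.795 in JUN and 0.513 in JUND. None of the CDS sites of JUNB was aligned to a site of JUN or JUND, and 1 of its 3' UTR sites was aligned to a site of JUND. The 3' UTRs of JUNB and JUND were only 43.0% identical over the alignment and shared no 50-nt window, so this alignment does not show that the sites match.

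HSPA1A and HSPA1B, which encode the inducible HSP70 chaperone, had CDS that were 99.8% identical, and 93.8% of the 50-nt windows of the CDS of HSPA1A occurred in HSPA1B. The authors kept only uniquely mapping reads. In the CDS 1 of 32 motifs was listed in HSPA1A and 0 of 32 in HSPA1B, which allows up to 9.38%. HSPA1B had 1 site in the 5' UTR and 3 sites in the 3' UTR, where no 50-nt window of HSPA1A occurred, at 40, 49 and 57 nt after the stop codon, with scores of 0.946, 0.812 and 0.961. The windows of the sites at 49 and 57 nt are shown because they overlap and both hold GGACT.
HSPA1B, 3' UTR, chr6:31829913-31829933, plus strand: gactgttgGGACTcaaggact
HSPA1B, 3' UTR, chr6:31829921-31829941, plus strand: ggactcaaGGACTttgctgct

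The frizzled receptors differed in how many sites they had. FZD2 had 9 sites, 8 of them in the CDS, and FZD7, whose CDS was 80.6% identical to that of FZD2, had 5, with 1 before the stop codon and 4 after it. FZD8 had 3 sites and FZD1 had 1. None of the sites of FZD2 and FZD7 lay at aligned bases. Few matches were possible, since FZD7 had 1 site in the CDS and FZD2 had 1 in the 3' UTR.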

How the data were processed

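miCLIP2 was performed on poly(A)+ RNA of C643 cells in 3 replicates (4 libraries). Per the labels, STAR 2.7.3a, SAMtools 1.9, UMI-tools 1.0.0 and bedtools 2.27.1 were used. The authors called peaks with PureCLIP, kept those found in at least 2 replicates and classified them with m6Aboost. The deposited file gives a prediction score for each site, a fraction between 0 and 1 that uses sequence, transcript region, C-to-T transitions and relative signal.

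Sites were placed on the Ensembl canonical transcripts of GENCODE release 44, whereas the authors used release 31 on the same assembly (hg38). DRACH motifs were counted on the strand of the mature transcript in hosts, and motifs shared with a single-exon transcript were left out of the spliced group. Differences of shares have Newcombe intervals, and the limit for a count of 0 is 3 counts of the total. Genes were named by number of sites (the top 15), by share (5 from either end), by score (3 from either end) or as the first of a family, beside RHOB and CCDC85B; others were chosen after their values were seen. Members, families and lists were chosen with earlier results of these data known. 1 family is not reported here. No test was run. The counting was tested on simulated data. Python 3.11.15, pandas 2.3.3, pysam 0.24.0 and Biopython 1.88 were used.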

Additional observations from a re-analysis of the deposited data

How the results depend on the processing

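In all 53 alternatives were computed for 10 results, and 40 stayed within the interval (for the median score, the quartiles) of the value reported or, for counts, close to it. With a score of at least 0.7 there were 400 sites, 45.0% of them in the CDS, 92.0% at DRACH and 36.8% within 200 nt of the stop codon, and the listed share was 9.74% over whole transcripts, 14.2% for CDS and 8.13% for 3' UTRs. With GGACT only, the listed share was 61.2% for CDS and 32.2% for 3' UTRs, and the CDS difference from spliced genes far from junctions was 9.45 points. That difference was 10.9 points at over 50 nt from a junction, 3.04 points at over 200 nt, 3.58 points without HPS6 and 2.39 points with a score of at least 0.7, and it reversed to -0.855 points over all canonical coding transcripts, which follows from the smaller share of hosts. A window of 400 nt around the stop codon took in 54.2% of members. Leaving out genes with spliced coding isoforms, HPS6 (not run for the numbers of sites and genes), the mitochondrial gene or sites in exons of another gene (neither run for the CDS difference) kept the shares and the median score within their intervals and the numbers close. No paired analysis was possible because the untreated cells form 1 group, and no replicate could be left out because the list pools them. Depth per site is unknown, so motifs that were not listed cannot be told apart from motifs without enough reads.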
